A study of Homo sapiens with 4 samples.

Results

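The maintenance of DNA methylation and its reading were followed through 9 genes, DNMT1, UHRF1, UHRF2, HELLS, DNMT3A, DNMT3B, MBD1, MBD2 and ZBTB38, in HCT116 cells, a long-established line from a human colorectal carcinoma. Every probe set whose single annotated gene symbol is one of these was taken, which gave 26 of the 54675 probe sets on the array, for 9 of its 19775 named genes. A probe set is a group of short probes read out as 1 value for a transcript. The study transfected the cells with a control siRNA (2 arrays) or with a TET1 siRNA (2 arrays), using a lipid reagent, and measured RNA on Affymetrix GeneChip arrays, 1 array per culture sample. Its stated question was which genes depend on TET1, a dioxygenase that oxidises methylated cytosine. The series calls the samples biological duplicates, both groups are the same unmodified cell line, and the labels name 1 TET1 siRNA group, so an effect of TET1 loss and an effect of the siRNA itself cannot be told apart.

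When DNA is copied, a methylated CpG site carries its mark on the old strand only. UHRF1 binds such half-methylated sites and marks histone H3 with ubiquitin, DNMT1 is recruited and methylates the new strand, and HELLS, a chromatin remodeller, opens packed chromatin for this step. DNMT3A and DNMT3B set methylation at sites that had none, and MBD1, MBD2 and ZBTB38 bind methylated DNA and bring repressive complexes. HCT116 cells are known to depend on this maintenance step for the silencing of many promoters.

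The values are signals in arbitrary units on a linear scale, scaled by the authors to the same trimmed mean on all 4 arrays (100.01), with array medians from 13.9 to 15.5. Levels of different probe sets are not comparable, since each has its own probes. TET1 itself was lower on both TET1 siRNA arrays, with signals of 14.6 and 15.0 against 58.1 and 59.6 with control siRNA (25.1% of the control mean) by the brighter of its probe sets. The difference was -1.28 on the log2(signal + 16) scale (SE 0.19, limma adjusted p = 0.00127), and -0.64 with a pseudocount of 64 in place of 16. The dimmer TET1 probe set gave 6.0 and 8.9 against 18.2 and 35.5 and did not pass at 0.05 (limma adjusted p = 0.0509). Both its TET1 siRNA signals lay under the filter described below, so no difference is read from it. Of 10 epithelial markers 8 were above the filter described below. The summed signal of all 10 was 18060 to 18737 in controls and 20025 to 20062 after TET1 siRNA. Of the 8, CDH1 fell from 925.1 and 1059 to 474.8 and 394 (-1.16, adjusted p = 2.78e-05). ELF3 also fell (-0.41, adjusted p = 0.0194), and KRT8 rose (0.32, adjusted p = 0.00887). CDX2 and LGALS4, intestinal markers, were near the array medians or below (4.7 to 15.3 in controls). VIL1, just above the filter, was dim too (10 and 18.9 in controls). The summed signals of fibroblast, endothelial, lymphocyte, myeloid and hepatocyte markers lay between 24.3 and 63 on every array, and none of their genes passed the test.

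The promoters of the 3 members whose transcripts were lower are shown because they share a short motif. E2F proteins, which drive genes of S phase, are known to bind words of the form TTTCCCGC or TTTCGCGC or TTTGCCGC or TTTGGCGC. These 4 words were searched on both strands, where matches may overlap, in RefSeq windows (GRCh38.p14) from 250 bases before to 50 bases after each annotated gene start. All 9 members had a window. The 3 with a match were HELLS, UHRF1 and DNMT1, and DNMT3A (6 windows), ZBTB38 (10 windows), DNMT3B, UHRF2, MBD1 and MBD2 (1 window each) had none. Each sequence below runs 5′ to 3′ on the gene's strand from 90 bases before the start to 20 bases past it, with the matches in capitals, and lies at chr10:94545698-94545807 (HELLS, plus strand), chr19:4909411-4909520 (UHRF1, plus strand) and chr19:10194934-10195043 (DNMT1, minus strand).
HELLS: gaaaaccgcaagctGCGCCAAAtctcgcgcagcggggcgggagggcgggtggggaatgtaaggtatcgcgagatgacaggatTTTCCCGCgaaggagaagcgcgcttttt
UHRF1: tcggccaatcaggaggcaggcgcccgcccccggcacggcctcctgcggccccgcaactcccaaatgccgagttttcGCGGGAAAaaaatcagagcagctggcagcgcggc
DNMT1: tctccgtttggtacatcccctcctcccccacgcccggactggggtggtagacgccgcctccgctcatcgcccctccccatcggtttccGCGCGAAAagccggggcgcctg

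Counted from the start, with negative positions before it, the matches lay at -8 to -1 and -76 to -69 in HELLS, at -14 to -7 in UHRF1 and at -2 to 6 in DNMT1, where it spans the start. Of the 3 UHRF1 windows, another has a match at -160 to -153 from its own start and the remaining one has none. The words were found in 3.31% of all 35116 windows and for 3.99% of 27305 genes. Among genes tested on these arrays, a match was present for 8.35% of 1102 genes that were lower, 5.23% of 1167 that were higher and 6.65% of 7837 that did not pass. These shares are a description, and a match is no measured binding site. The search was chosen after the members' values had been seen.

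Of the 26 member probe sets, 21 had a mean above the filter (a signal near 13.1, the median over the array without its controls) and were tested. With each probe set tested by itself across the whole table (limma, Benjamini-Hochberg adjusted p below 0.05 over 27306 probe sets), 4 were lower (8.31% of all probe sets tested were), 2 were higher (7.76% of all) and 15 did not pass. Those that fell belong to UHRF1, DNMT1 and HELLS, the maintenance step, and those that rose to MBD1, a reader. The median difference was -0.06 over the members tested and -0.01 over all probe sets tested. In 8 of the 21 both TET1 siRNA arrays lay below both control siRNA arrays (28.9% of all tested) and in 7 both lay above (27.3% of all). The 8 include MBD2 202485_s_at, whose TET1 siRNA signals (11.5 and 4.3) lay under the filter. It was tested only through its control values, and no difference is read from it. With 1 probe set per gene, 3 of the 9 genes were lower (10.6% of all genes tested). Of the 9, 1 was higher, a share near that of all genes (11.2%). The remaining 5 probe sets, of DNMT3A, MBD2 and ZBTB38, gave signals from 1.7 to 19.8 and were not tested. With 2 arrays a group the smallest p of an exact permutation test is 0.33, and the model's p-values rest on the sharing of variance between probe sets. They measure the spread between these samples. Without a trend of variance with signal, 1 of the 6 passed (HELLS 220085_at, adjusted p = 0.0489). Of all 27306 probe sets, 541 were lower and 298 higher in that model. In the model without any sharing no member passed, and 1 of all 27306 probe sets did. There 7 of the 21 had unadjusted p below 0.05, which was counted for members only.

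**Figure D1:**
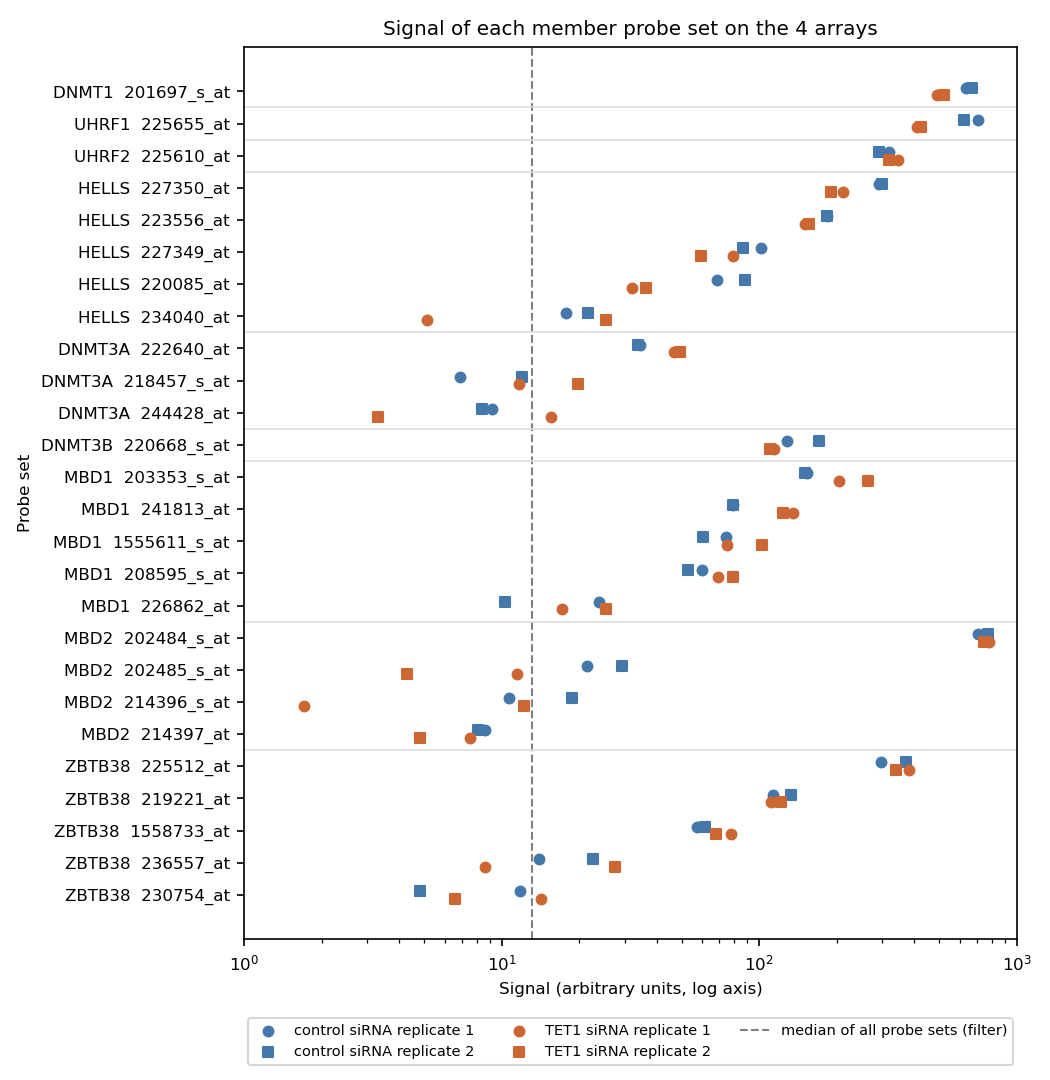
Signal (arbitrary units, log axis) of each of the 26 member probe sets on the 2 control siRNA arrays (blue) and the 2 TET1 siRNA arrays (orange), with circles for replicate 1 and squares for replicate 2. The dashed line is the filter near 13.1. UHRF1, DNMT1, DNMT3B, 4 HELLS and 2 dim MBD2 probe sets have both orange points to the left of both blue ones. UHRF2, 4 MBD1 probe sets, the brightest DNMT3A probe set and 1 ZBTB38 probe set have them to the right. Both TET1 siRNA arrays lay below both control siRNA arrays in 28.9% of all probe sets tested and above them in 27.3%.

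UHRF1, the reader of half-methylated CpG sites, fell most among the members' brightest probe sets. Its single probe set (225655_at) gave signals of 709.1 and 627.2 on the control arrays and 408.7 and 425.1 after TET1 siRNA. Both TET1 siRNA arrays were clearly lower, and the groups did not overlap. The mean went from 668.15 ± 57.9 to 416.9 ± 11.6 (SD, n = 2 each), to 62.4% of control, a log2 difference of -0.66 (SE 0.091, adjusted p = 0.000793). With any 1 array left out, its difference ran from -0.74 to -0.57. The probe set missed the threshold in limma without a variance trend (adjusted p = 0.0564) and without any sharing of variance (adjusted p = 0.202). Of the 22 tested genes within a Euclidean distance of 0.1 from its profile over the 4 arrays (log2 values as deviations from the control mean), TRPC4AP (0.042), TNFAIP3 (0.050) and TAF1 (0.054) were nearest.

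UHRF2, the paralogue that shares UHRF1's domain layout but is known not to replace it in maintenance, did not move with it. Its probe set (225610_at) gave 320.2 and 291.6 on the control arrays and 346.0 and 320.3 after TET1 siRNA. The TET1 siRNA arrays were the higher ones, but replicate 1 of the control group and replicate 2 of the TET1 group were nearly equal. The log2 difference was 0.12 (95% interval -0.10 to 0.34, adjusted p = 0.49).

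DNMT1, the maintenance methyltransferase, was lower as well. Its single probe set (201697_s_at; the suffix marks probes that can match several transcripts) gave 638.5 and 671.5 on the control arrays and 492.3 and 520.6 after TET1 siRNA. All values of one group lay apart from those of the other. The mean went from 655.0 ± 23.3 to 506.45 ± 20.01 (SD, n = 2 each), to 77.3% of control, a log2 difference of -0.36 (SE 0.084, adjusted p = 0.0138). The call did not hold without control siRNA replicate 2 (-0.33, adjusted p = 0.0735) or without TET1 siRNA replicate 1 (-0.32, adjusted p = 0.0842), and adjusted p ran from 0.00814 to 0.207 over its alternatives. Nearest to its profile were HAT1 (distance 0.010), which encodes a histone acetyltransferase of newly made histones, THOC6 (0.021) and SMAGP (0.024), out of 113 genes within 0.1.

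HELLS was lower in the mean of all 5 of its probe sets, of which 2 passed. The brightest (227350_at) gave 290.8 and 299.7 on the control arrays and 212.5 and 190.4 after TET1 siRNA. Both TET1 siRNA values were well under both control values. The log2 difference was -0.52 (SE 0.11, adjusted p = 0.00733), and it missed the threshold without TET1 siRNA replicate 2 (-0.45, adjusted p = 0.052, range over the alternatives 0.0043 to 0.207). Probe set 220085_at gave 68.5 and 87.8 against 32.1 and 36.2. With TET1 siRNA its mean was 43.7% of control, a log2 difference of -0.90 (SE 0.18, adjusted p = 0.00638), and -0.53 with a pseudocount of 64. It missed the threshold without control siRNA replicate 2 (-0.75, adjusted p = 0.0584, range 0.00606 to 0.229). Probe set 223556_at gave 184.2 and 182.6 against 150.6 and 156.8, and 227349_at gave 101.2 and 86.2 against 78.8 and 59.2. In both the groups did not overlap, and neither passed (adjusted p = 0.204 and 0.164). The dimmest (234040_at) had 17.7 and 21.7 against 5.1 and 25.4, so the TET1 siRNA values enclosed those of the control. LSM4 (distance 0.0092), FOXL1 (0.029) and PIGC (0.032) were nearest to the profile of the brightest, out of 65 genes within 0.1.

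Between the enzymes that set new methylation, the measured differences had opposite signs, and neither gene passed. DNMT3A was dim, with 34.4 and 33.7 against 46.7 and 49.2 by its brightest probe set (222640_at). Both TET1 siRNA arrays were higher by more than the spread within a group, with a log2 difference of 0.35 (95% interval -0.04 to 0.75, adjusted p = 0.223). Its other probe sets were under the filter, with 6.9 and 12 against 11.7 and 19.8 (218457_s_at) and 9.2 and 8.4 against 15.5 and 3.3 (244428_at).
DNMT3B (220668_s_at) gave 127.8 and 170.4 on the control arrays and 114.2 and 109.9 after TET1 siRNA. Both TET1 siRNA values were lower, and the control values differed from each other by more than the gap between the groups. The log2 difference was -0.35 (95% interval -0.68 to -0.03, adjusted p = 0.137). It was -0.54 and past the threshold without control siRNA replicate 1 (adjusted p = 0.0477, range over the alternatives 0.0477 to 0.595) and -0.17 without control siRNA replicate 2.

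**Figure D2:**
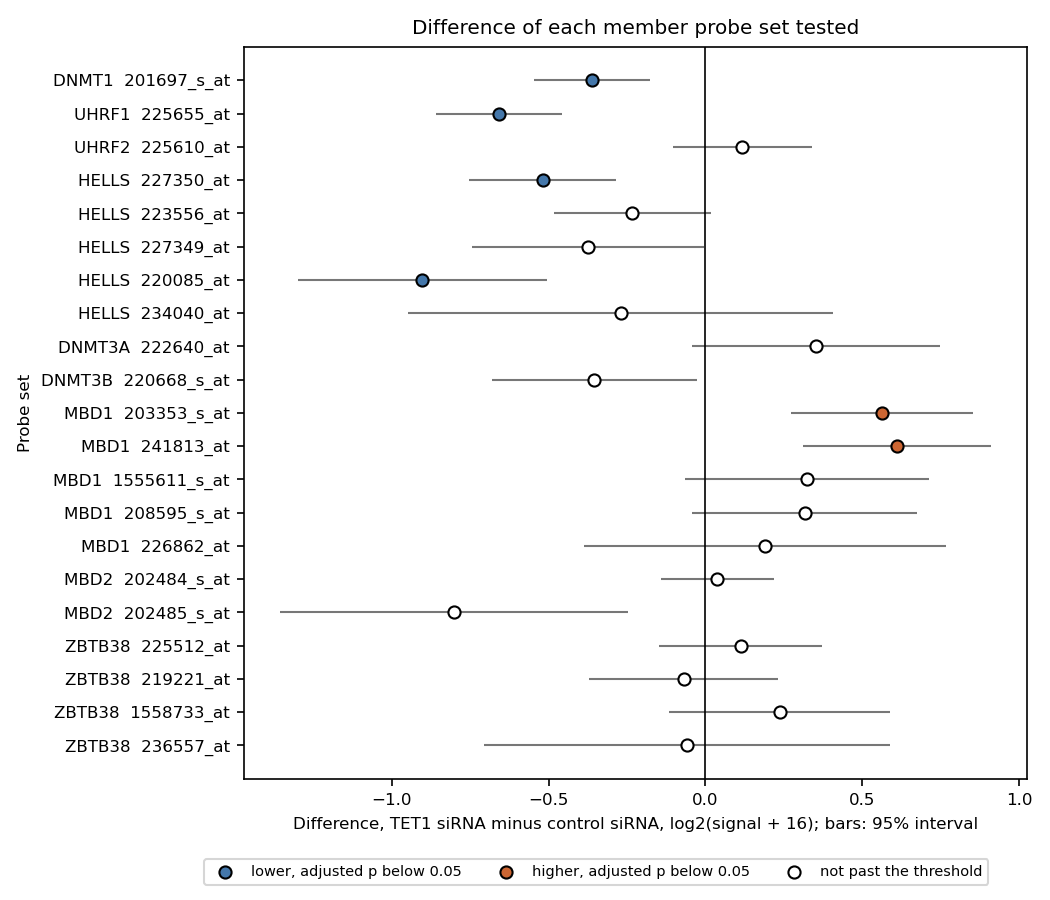
Difference between TET1 siRNA and control siRNA on the log2(signal + 16) scale for the 21 member probe sets tested, with 95% intervals from limma that are not adjusted for the number of tests. Filled points passed at adjusted p below 0.05: UHRF1 (-0.66), DNMT1 (-0.36) and 2 HELLS probe sets (-0.52 and -0.90) on the lower side, 2 MBD1 probe sets (0.56 and 0.61) on the higher side.

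MBD1, which binds methylated CpG and recruits the histone methyltransferase SETDB1, was higher in the mean of all 5 of its probe sets, and 2 passed. The brightest (203353_s_at) gave 153.0 and 151.2 on the control arrays and 205.0 and 263.5 after TET1 siRNA. The control values were almost the same, and the TET1 siRNA values lay above them but far from each other. The log2 difference was 0.56 (SE 0.13, adjusted p = 0.0143). It did not pass without TET1 siRNA replicate 2 (0.39, adjusted p = 0.129) or without control siRNA replicate 2 (0.56, adjusted p = 0.0548), with a range of 0.00637 to 0.313 over the alternatives. Probe set 241813_at gave 79.2 and 79.0 against 134.8 and 124.0. Here both groups were tight and apart, with TET1 siRNA at 163.6% of control, a log2 difference of 0.61 (SE 0.14, adjusted p = 0.0114). It did not pass without TET1 siRNA replicate 1 (0.56, adjusted p = 0.0773, range 0.00636 to 0.176). Probe sets 1555611_s_at (74.2 and 60.3 against 74.9 and 102.7) and 208595_s_at (59.8 and 52.7 against 69.1 and 78.9) had non-overlapping groups and did not pass (adjusted p = 0.258 and 0.227). The dim 226862_at gave 23.9 and 10.3 against 17.1 and 25.3, which overlap. Nearest to the profile of the brightest were the pseudogene TPTE2P6 (0.065), MTMR9 (0.075) and MYBL1 (0.078), out of 5 genes within 0.1.

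MBD2, which ties methylated DNA to the NuRD deacetylase complex, showed no difference by its bright probe set. That probe set (202484_s_at) gave 711.0 and 771.9 on the control arrays and 779.1 and 743.8 after TET1 siRNA. The groups overlapped, and the log2 difference was 0.04 (95% interval -0.14 to 0.22, adjusted p = 0.812). A dim MBD2 probe set (202485_s_at) gave 21.4 and 29.4 against 11.5 and 4.3. Both TET1 siRNA values were lower and lay under the filter's signal, so it was tested only through its control values, and no difference is read from it. The other MBD2 probe sets were under the filter, with 10.7 and 18.8 against 1.7 and 12.2 (214396_s_at) and 8.6 and 8.1 against 7.5 and 4.8 (214397_at).
ZBTB38, a zinc finger protein that binds methylated CpG, did not pass in any of its 4 tested probe sets (limma; unadjusted p from 0.165 to 0.845). The brightest (225512_at) gave 296.8 and 370.4 against 380.5 and 340.1, a log2 difference of 0.11 (95% interval -0.15 to 0.37). Probe set 219221_at gave 113.4 and 133.4 against 111.2 and 122.0, and 1558733_at gave 57.1 and 61.7 against 78.0 and 68.0. Only the last of these had groups that did not overlap. The dim probe sets gave 14.0 and 22.7 against 8.6 and 27.5 (236557_at) and 11.8 and 4.8 against 14.2 and 6.6 (230754_at).

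Whether probe sets of 1 gene changed unequally was tested on their within-array log2 ratio to the gene's brightest, over 10963 such pairs. None of the 12 member pairs passed in limma (2.21% of all pairs did). The 1 pair with an unadjusted p below 0.05 holds the MBD2 probe set 202485_s_at, whose TET1 siRNA signals lay under the filter. HELLS 220085_at differed from the brightest HELLS probe set by -0.38 (95% interval -0.84 to 0.07), and the 4 MBD1 pairs ran from -0.37 to 0.05. Pairs that do not include the brightest probe set were not compared, among them HELLS 220085_at (-0.90, 95% interval -1.30 to -0.51) and 223556_at (-0.23, 95% interval -0.48 to 0.02).

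Whether a member changed unlike UHRF1 was tested on its within-array log2 ratio to UHRF1, fitted for 12388 genes. UHRF1 was chosen as the reference with earlier results of these data known. It fell most among the members' brightest probe sets, so all other members lie above it by that choice. Of the 8 other members 6 differed from UHRF1, a share near that of all genes (78.9%), since most genes changed little. UHRF2 lay 0.78 above UHRF1 (95% interval 0.49 to 1.06), MBD1 1.22, DNMT3A 1.01, ZBTB38 0.77 and MBD2 0.70 above it. DNMT1 lay 0.30 above UHRF1 (95% interval 0.04 to 0.56, adjusted p = 0.0344). This call for DNMT1 was lost in limma without a variance trend (adjusted p = 0.112) and without any sharing of variance (adjusted p = 0.181). With the replicate number as a block it was lost too (adjusted p = 0.0951). That call was lost without control siRNA replicate 1 (0.17, adjusted p = 0.207), without TET1 siRNA replicate 1 (0.31, adjusted p = 0.186) and without TET1 siRNA replicate 2 (0.29, adjusted p = 0.212), with adjusted p from 0.00177 to 0.212 over its alternatives. HELLS (0.14, 95% interval -0.16 to 0.43, adjusted p = 0.381) and DNMT3B (0.30, 95% interval -0.04 to 0.64, adjusted p = 0.0963) were not shown to differ from it, though DNMT3B passed without control siRNA replicate 2 (0.58, adjusted p = 0.00273, range 0.00273 to 0.885). Every ratio holds the same 4 UHRF1 values, so the fit is not made of independent ratios. Its estimated prior degrees of freedom were infinite, unlike those of the other fits. The intervals of these ratios therefore treat the error as known, which 4 arrays cannot give. With the error taken from the gene fit, an alternative added after the values were seen, the same 6 passed. That share is again near that of all genes (76.3%). In this alternative MBD1 had an adjusted p of 0.000103 and DNMT1 of 0.0439.

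The partners of the maintenance step did not move as one. Of 16 genes tested, 5 fell and 1 rose, where 10.6% of all genes fell and 11.2% rose. Their median difference was -0.10 on the log2 scale, against 0.01 over all 12389 genes tested. CDCA7, which forms a nucleosome remodelling complex with HELLS, went from 548.6 and 467.2 to 298.3 and 333.0 (-0.66, adjusted p = 0.00107). LIG1, the DNA ligase whose methylated form binds UHRF1, went from 121.2 and 111.8 to 81.2 and 73.2 (-0.51, adjusted p = 0.0251). TRIM28, a corepressor, fell by 0.57 (adjusted p = 0.000785) and CHAF1A, a histone chaperone subunit at the replication fork, fell by 0.50 (adjusted p = 0.0448). CDCA7L, a relative of CDCA7 named after its value was seen, fell by 0.37. PCNA, the sliding clamp that DNMT1 binds, was the gene that rose, from 2102.8 and 1906.9 to 2258.9 and 2477.1 (0.24, adjusted p = 0.0411). USP7, a deubiquitinase bound to DNMT1 and UHRF1, gave 586.9 and 568.6 against 525.8 and 590.3 (-0.05, 95% interval -0.24 to 0.14, adjusted p = 0.745).

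None of the 11 other methyltransferases and readers tested passed (median 0.09, range -0.25 to 0.17; the lowest unadjusted p was 0.0565). They include ZBTB4 (-0.25), BAZ2A (-0.19), SETDB1 (0.15) and MBD3 (-0.13), with limma adjusted p from 0.16 to 0.555. Of 16 genes of MBD1 and MBD2 complexes, 4 fell (10.6% of all genes did) and none rose (11.2% of all), with a median of -0.08. RBBP4, a histone-binding subunit of NuRD and of the chromatin assembly factor, went from 1859.6 and 1847.9 to 1181.3 and 1167.6 (-0.65, adjusted p = 6.7e-05). MTA3 (-0.57) and CHD4 (-0.29), both NuRD subunits, also fell, as did CHAF1A, which is in this list too.

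Genes that supply the methyl donor were lower in 5 of 11 tested (10.6% of all genes were), and none rose (11.2% of all did). Their median was -0.25. MTAP, which salvages methylthioadenosine back towards methionine, went from 900.8 and 915.6 to 370.1 and 375.5, a log2 difference of -1.25 (SE 0.080, adjusted p = 3.27e-06). AHCYL1, a relative of the enzyme that removes S-adenosylhomocysteine, fell by 0.57. MAT2A, which makes S-adenosylmethionine, fell by 0.29 (adjusted p = 0.0347), as did the folate enzyme gene MTHFD1 (adjusted p = 0.0169). SHMT2, named after its value was seen, fell by 0.25.

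UHRF1, DNMT1 and HELLS are known to be expressed with the genes of S phase, so replication genes were read beside them. Of 46 tested, 14 fell, against 10.6% of all genes, and none rose, against 11.2%, with a median of -0.24. The other 32 did not pass. The sliding clamp gene PCNA, which rose (0.24), was counted among the maintenance partners and not in this list. GINS1, a subunit of the replicative helicase, fell by 1.25 on the log2 scale. RFC2, part of the clamp loader, fell by 0.84, DBF4, which activates the kinase CDC7, fell by 0.79 and MCM7 fell by 0.67. The E2F words were present in the promoter windows of 22 of the 41 genes of this list that have one (53.7%), against 6.67% of all genes tested. The share was 33.3% of 18 for the E2F regulators, 26.7% of 15 for the maintenance partners, 14.3% of 14 for methyl donor supply, 10.5% of 19 for the germline genes and 9.09% of 11 for other methyltransferases and readers. It was 0 of 16 for the MBD1 and MBD2 complexes. These list shares count every listed gene with a window, tested or not, and over all 27305 genes with a window the share was 3.99%. They follow from the choice of genes, use no signal of these arrays and were not split by call. Among 22 regulators of E2F and its repressors, 4 rose (11.2% of all genes did) and 2 fell, a share near that of all genes (10.6%). CDKN1A, the cell cycle inhibitor p21, went from 968.9 and 946.4 to 1623.9 and 1703.3 (0.79, adjusted p = 2.86e-05). TFDP2 (0.62), RB1 (0.57) and CCND1 (0.51) rose, and E2F8 (-0.70) and TFDP1 (-0.44) fell. CCND1 and TFDP1 were named after their values were seen. In a bulk sample, fewer cells in S phase and less transcript per cell cannot be told apart, and the part of the cell cycle in the fall of UHRF1, DNMT1 and HELLS was not tested.

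Germline genes that are known to be kept silent by DNA methylation showed no rise past the threshold. Of 19 on the array, 16 were under the filter, with signals from 0.2 to 22.4. None of the 3 tested passed (limma; unadjusted p from 0.0163 to 0.4). MAGEB2 was already bright with control siRNA, with 2716.0 and 2475.7 against 2905.9 and 3022.5 (0.19, adjusted p = 0.0665). MAGEA1 gave 10.2 and 34.3 against 37.2 and 37.0 (0.55, adjusted p = 0.208), where control siRNA replicate 2 lay close to the TET1 siRNA arrays. TEX11 gave 16.4 and 16 against 13.2 and 10.2 (-0.22, adjusted p = 0.603). Its mean after TET1 siRNA lay under the filter, so it was tested only through its control values, and no difference is read from it. DNA methylation itself was not measured in these samples.

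**Figure D3:**
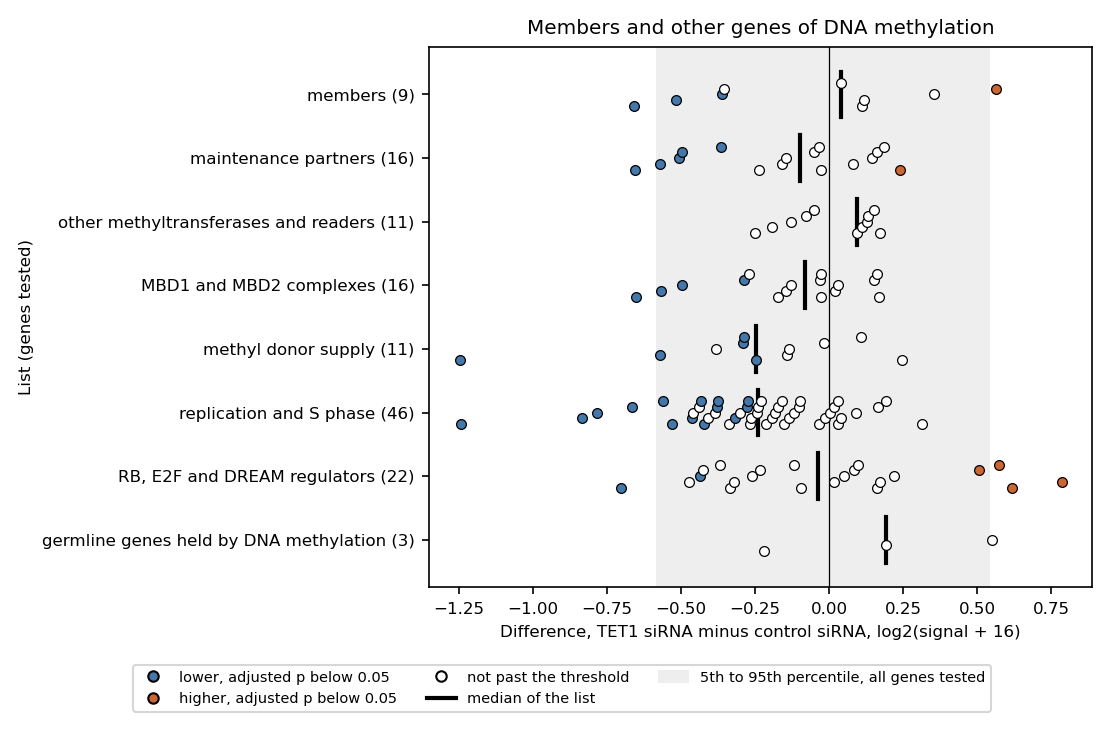
Difference between TET1 siRNA and control siRNA (log2(signal + 16) scale) of each tested gene, for the 9 members and the other gene lists, with 1 point per gene and a bar at each median. The grey band runs from the 5th to the 95th percentile of all genes tested (-0.58 to 0.54). UHRF1, at -0.66, lies below the band and MBD1, at 0.56, above it, and the other members lie within it.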

How the data were processed

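RNA of 4 HCT116 samples was measured on 1 array each. Per the labels' protocols, reverse transcription started from an oligo(dT) primer, so probes near the 3' end are favoured, and the cRNA carried biotin. The authors deposited 1 linear intensity for each probe set. The sources used here do not give the software, the background step or the scaling target, and dim signals depend on the background step. Signals were used as log2(signal + 16) after 62 control probe sets were left out. Probe sets were named through the platform annotation (1 symbol for 41091, several for 1801, none for 11721), with current symbols from RefSeq for 41037, and none was named from several symbols. For each gene the probe set with the highest mean stood for it. Probe sets and genes with a mean log2 value above 4.86, the median of all probe sets, were tested two-sided in R 4.3.3 with limma 3.58.1 (eBayes after lmFit, with a variance trend, Benjamini-Hochberg, threshold 0.05), with 2 residual degrees of freedom and a prior of 8.73 for probe sets and 9.24 for genes. Differences on this scale understate changes of dim genes. The method was tested on simulated data.

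The members, the lists and UHRF1 as the reference were chosen with earlier results of these data known. All members, TET1, PCNA, USP7 and LIG1 are named, up to 4 genes of each other list (those past the threshold by size, then by p) and the 3 genes nearest to each of 4 members. Genes outside this rule are said to have been named after their values were seen. Alternatives were other normalizations, pseudocounts, variance models, filters, thresholds and choices of probe set, the replicate number as a block, and leaving out each array. Figures were drawn with matplotlib 3.10.9.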

Additional observations from a re-analysis of the deposited data

How the results depend on the processing

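Precision is limited by having 4 arrays, and dim probe sets (signals near 13.1) carry a large share of background. The counts of the report were 4 probe sets lower and 2 higher, 3 genes lower and 1 higher, 0 of 12 pairs of probe sets unequal and 6 of 8 members unlike UHRF1. Without a variance trend they were 1 and 0 probe sets, and 1 (UHRF1) and 0 genes. In limma without moderation they were 0 and 0 probe sets, 0 and 0 genes and 0 members unlike UHRF1, where 2 residual degrees of freedom remain and 7 probe sets and 4 genes had unadjusted p below 0.05, and TET1 (-1.28) had adjusted p = 0.0964. At 1.5-fold or more they were 2 and 1 probe sets and 1 and 0 genes. With no filter 1 probe set was higher, and 0 genes were higher when a gene's probe sets were averaged. With the replicate number as a block, where the samples share only a number (deviations of replicate 1 in the 2 groups had r = 0.0066 over probe sets), 1 pair of probe sets was unequal, and the counts of member probe sets (4 and 2) and genes (3 and 1) past the threshold were as before, while 5 members were unlike UHRF1, DNMT1 being lost (adjusted p = 0.0951). The same count was 5 without a variance trend and 7 with a pseudocount of 64. Leaving out 1 array, with the lone array assumed to vary like the other group, gave 2 to 5 probe sets lower and 1 to 2 higher, 2 to 4 genes lower and 0 to 1 higher, 0 unequal pairs and 5 to 7 members unlike UHRF1. TET1 stayed lower at -1.30 to -1.27. A pseudocount of 1 or 64 put TET1 at -1.92 or -0.64 and HELLS 220085_at at -1.16 or -0.53, all past the threshold, and moved other dim probe sets likewise, MBD2 202485_s_at to -1.68 or -0.31 (not past it). Signs turned only for differences that had not passed. MBD2 was at -0.34 when its probe sets were averaged. With 1 array left out, MBD2 (202484_s_at) ran from -0.020 to 0.096, ZBTB38 from -0.040 to 0.26 (225512_at), from -0.17 to 0.034 (219221_at) and from -0.47 to 0.35 (236557_at), MBD1 226862_at from -0.11 to 0.49 and HELLS 234040_at from -0.76 to 0.22. The causes were not tested. Over all 27306 probe sets, 541 were lower and 298 higher without a variance trend, and 1 and 0 without moderation. Unadjusted p below 0.05 was counted for members only. Over all genes, 1316 were lower and 1393 higher, against 542 and 442 without a variance trend, 0 and 0 without moderation (limma; lowest adjusted p 0.0898), 854 and 905 with no filter, 892 and 772 with averaged probe sets, 909 and 885 without _x_at and _s_at probe sets, 537 and 429 at 1.5-fold or more, and 813 to 979 and 756 to 1185 with 1 array left out. Of 416 values of single genes and probe sets under the alternatives, 369 kept their direction and side of the threshold. Most of the 416 belong to results that had not passed, and a brightest probe set is often counted again as its gene. All 31 values that lost a call belong to results that had passed, so the total overstates how firm the calls are.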
